A study of Mus musculus with 9 samples.

Results

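Acute induction of YAP was described by comparing 4 single-cell libraries of mouse liver in which an active YAP transgene had been switched on for 3 days (YAP3d) with 2 libraries of wild-type liver (WT). The labels do not say whether each library came from a separate animal. The libraries were chosen by the group in their names, and all cells of a library with at least 200 detected genes were summed, so that the library was the replicate. This gave 5633 cells in 6 libraries out of 8527 cells in 9 libraries, the other 3 libraries with 2894 cells being from liver induced for 7 days (YAP7d). All mice were on a C57BL/6 background, carried the reverse tetracycline transactivator rtTA with IRES-EGFP at the ROSA26 locus and ate doxycycline food. The YAP3d and YAP7d mice carried tetYAP in addition, a tetracycline-responsive transgene for YAP with a serine-to-alanine change that keeps it active, and received doxycycline for 3 and 7 days, whereas WT mice lacked tetYAP and received it for 7 days. The length of doxycycline feeding therefore cannot be told apart from the transgene in the 3-day comparison. According to the study's methods rtTA was activated by Cre under the albumin promoter, which is active in hepatocytes, while the cells profiled were the non-hepatocyte fraction left after dispase and collagenase digestion and low-speed spins.

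YAP is the transcriptional co-activator at the end of the Hippo pathway. When the kinases of the pathway are active they phosphorylate YAP and hold it in the cytoplasm, and when they are inactive YAP enters the nucleus, binds TEAD transcription factors and switches on target genes such as Ctgf, Cyr61 and Ankrd1. In the liver, active YAP in hepatocytes is known for driving growth of the organ, loss of hepatocyte identity and, with time, tumours that attract macrophages. The cells around the hepatocytes are the fenestrated sinusoidal endothelium, Kupffer cells (the resident macrophages), lymphocytes, dendritic cells and a few biliary and stellate cells.

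The WT libraries held 521 and 1416 cells with 1916619 and 7335861 unique molecular identifiers (UMIs, each 1 captured RNA molecule), and the YAP3d libraries held 281, 442, 422 and 2551 cells with 1288940, 3026479, 1704058 and 13084920 UMIs. The median cell had 3231 to 5083 UMIs in these libraries. Between 2 and 20 cell barcodes of a library of these 6 also occurred in another library of the series. YAP3d replicate 2 stood apart, since 23.3% of its cells were monocyte-like against 2.49 to 3.57% in the other YAP3d libraries. Across the 10996 genes tested, which are not independent replicates, its levels, as log2(CPM + 1) with CPM the counts per 1000000 UMIs of the library, correlated more with the 3 YAP7d libraries (r 0.941 to 0.967) than with the other YAP3d libraries (0.908 to 0.915) or with WT (0.881 and 0.903). The pseudogene Gm10709 had 3.65 and 11.0 CPM in WT and 347, 428, 4.7 and 11.2 CPM in YAP3d, and 362, 392 and 611 CPM in YAP7d, so that YAP3d replicates 1 and 2 were at the level of YAP7d and replicates 3 and 4 at that of WT. The split runs within YAP3d only, WT being low throughout and YAP7d high throughout, so it partly coincides with the groups of both comparisons made here. Medians of gene lists are given in part also without YAP3d replicate 2, and the part of Gm10709 was tested only as an added term in the fit.

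The first question was whether the induced gene and its partners differed. Yap1 (chromosome 9, 7931999 to 8004638 of GRCm38.p6, a protein-coding gene) had 15.7 and 11 CPM in WT and 10.9, 5.29, 12.9 and 12.1 CPM in YAP3d, which overlapped. Counting of transgene transcripts under Yap1 was not analysed here. Wwtr1, which encodes the paralogue TAZ, had 42.8 and 33.9 CPM in WT and 31, 9.91, 42.2 and 29.5 CPM in YAP3d, and only YAP3d replicate 2 was far below WT. Of 18 genes of the Hippo kinase cascade and TEAD factors 16 were tested, with a median log2 fold change (YAP3d minus WT) of -0.16 (-0.07 without YAP3d replicate 2) against 0.00 for all 10996 genes tested. The Hippo kinase gene Stk4 was higher without overlap at 51.6 and 49.8 CPM in WT and 77.6, 73, 68.7 and 55.8 CPM in YAP3d. The TEAD factors were sparse, with Tead1 at 12.5 and 6.95 CPM in WT and 7.76, 2.31, 9.39 and 7.95 CPM in YAP3d. Tead2 had 8.35 and 7.5 CPM in WT and 6.98, 1.65, 4.7 and 5.73 CPM in YAP3d, below WT in all 4 induced libraries. Stk4 and Tead2 were the only tested members without overlap, each 6.25% of those tested. Over all genes 4.54% were higher and 7.95% lower without overlap, so this is near the background. Tead3 and Tead4 were too low to be tested, Tead4 having 3.13 and 2.59 CPM in WT and 0.776, 0.661, 4.11 and 3.21 CPM in YAP3d.

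Of 24 YAP target genes 17 were tested, 10 with values above 0 and 7 below, with a median log2 fold change of 0.01. Ctgf, a secreted matricellular protein and the standard YAP target, had 2.09 and 4.5 CPM in WT and 3.1, 1.32, 6.46 and 2.67 CPM in YAP3d. Cyr61 had 8.87 and 42.1 CPM in WT and 18.6, 5.29, 8.22 and 20.1 CPM in YAP3d, the highest value being that of WT replicate 2. Ankrd1 had 0 and 9.54 CPM in WT and 8.53, 0.33, 1.76 and 7.72 CPM in YAP3d. The ranges of the groups overlapped in all 3. Ccnd1, which encodes the G1 cyclin D1 and was the most abundant member, had 162 and 126 CPM in WT and 196, 174, 182 and 139 CPM in YAP3d, and Axl, a receptor tyrosine kinase, had 29.2 and 52.4 CPM in WT and 24.8, 89.5, 36.4 and 35.7 CPM in YAP3d. Amotl2, which encodes a YAP-binding junction protein, had 40.7 and 36.7 CPM in WT and 31, 5.95, 31.7 and 29.8 CPM in YAP3d. YAP3d replicate 2 was far below the others in Amotl2, which with the matrix gene Ccdc80 was 1 of 2 targets lower without overlap (11.8% of those tested), none being higher. Over all genes 7.95% were lower and 4.54% higher without overlap, so these counts are near the background. In sums over all cells of a library, fewer cells of a type and less RNA per cell cannot be told apart.

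The second question was which genes differed across the whole cell suspension. With edgeR's quasi-likelihood test none of the 10996 genes passed a Benjamini-Hochberg adjusted p of 0.05 (0% called). At an unadjusted p under 0.05 there were 312 genes, 184 higher (1.67%) and 128 lower (1.16%). DESeq2 called 32 genes, all higher (0.291%), and 284 at an unadjusted p under 0.05. The values of the 4 YAP3d libraries lay entirely above both WT libraries in 499 genes (4.54%) and entirely below in 874 (7.95%). The genes named below are therefore described by their values, none having passed the main test.

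Hepatocyte genes made up most of the named genes that were higher. All 30 tested members of a 37-gene list of hepatocyte secreted and metabolic genes had a positive log2 fold change, with a median of 2.44 (2.41 without YAP3d replicate 2), and 15 of them did not overlap, which is 50% against the 4.54% of all genes. The count filter can let a gene in through YAP3d alone, as with Selenbp2 below, so these signs and counts are partly set by it. Summed over the whole list the level was 1285 and 996 CPM in WT and 5500, 3205, 3549 and 1433 CPM in YAP3d. YAP3d replicate 4 was the lowest of the induced libraries and lay close to WT replicate 1. Selenbp2, a selenium-binding protein of the liver (chromosome 3, 94693573 to 94704406), had 1.04 and 0.818 CPM in WT and 71.4, 65.4, 54 and 10 CPM in YAP3d, or 2 and 6 UMIs in WT (log2 fold change 5.71, SE 0.984, unadjusted edgeR p 0.000377). Ass1, the urea cycle enzyme argininosuccinate synthase (chromosome 2, 31470270 to 31520670), had 77.2 and 69.1 CPM in WT and 265, 94.5, 235 and 149 CPM in YAP3d (log2 fold change 1.31, SE 0.371, unadjusted edgeR p 0.00765). Bhmt, which remethylates homocysteine, had 57.4 and 2.86 CPM in WT and 349.9, 257, 292 and 115 CPM in YAP3d. These 3 genes were named for having every YAP3d library above both WT libraries. WT replicate 1 was far above WT replicate 2 in Bhmt.

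Hamp, which encodes the iron hormone hepcidin, had 17.7 and 2.59 CPM in WT and 123, 42.6, 109 and 24.8 CPM in YAP3d. It followed the order of Bhmt, with WT replicate 2 lowest. Serpina1b and Serpina1c are near-identical genes for alpha-1 antitrypsin, between which reads can be split. Serpina1b had 13.6 and 2.59 CPM in WT and 86.9, 39.6, 117 and 17 CPM in YAP3d (log2 fold change 3.18, SE 0.918, unadjusted edgeR p 0.00831, 2.21 to 4.50 with a library left out). Serpina1c had 16.2 and 5.32 CPM in WT and 109, 64.1, 203 and 18.1 CPM in YAP3d (log2 fold change 3.27, SE 0.942, unadjusted edgeR p 0.00817, 2.56 to 4.08 with a library left out). In both YAP3d replicate 4 was close to WT replicate 1. Adk, adenosine kinase, had 22.4 and 25.5 CPM in WT and 69, 49.6, 54.6 and 36.6 CPM in YAP3d (log2 fold change 1.07, SE 0.256, unadjusted edgeR p 0.00287), and Ddt, a tautomerase of the MIF family, had 54.3 and 42.9 CPM in WT and 96.2, 84.3, 114 and 69.6 CPM in YAP3d (log2 fold change 0.89, SE 0.218, unadjusted edgeR p 0.00336). Their differences were smaller. The deaminase gene Hrsp12 had a log2 fold change of 1.39 (0.85 without WT replicate 2 and 2.1 without WT replicate 1) and the mitochondrial gene Chchd10 one of 0.79 (0.50 to 1.10 with a library left out). Alb had 57.4 and 91.9 CPM in WT and 853, 182, 195 and 76.7 CPM in YAP3d, so that YAP3d replicate 4 lay between the WT libraries and YAP3d replicate 1 far above all. Apoa1 had 17.2 and 5.32 CPM in WT and 131, 67.7, 26.4 and 12.5 CPM in YAP3d. Hnf4a, the nuclear receptor that sets hepatocyte identity, was too low to be tested at 1.56 and 0.818 CPM in WT and 6.21, 2.97, 2.35 and 1.68 CPM in YAP3d.

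Of the 32 genes DESeq2 called, 31 had their highest level in hepatocyte-like cells. Every YAP3d library was above WT in 31 of the 32, the fibrinogen gene Fgb being the exception. They covered urea synthesis (Cps1, DESeq2 log2 fold change 3.61), gluconeogenesis (Fbp1, 2.92), bile acid metabolism (Baat, 4.51, and Akr1d1, 3.49), fibrinogen (Fgb, 3.31, and Fgg, 2.96) and vitamin carriers (Rbp4, 2.50, and Gc, 2.45). The exception was Mmp12, macrophage elastase, which was highest in macrophage-like cells (DESeq2 log2 fold change 3.13, adjusted p 0.0137) with 1 and 15 UMIs in WT and 11, 65, 28 and 86 UMIs in YAP3d. Without YAP3d replicate 2 DESeq2 called 17 genes, 13 of them among the 32. The Gm10709 term in edgeR left 0 genes with an adjusted p under 0.05 and 149 with an unadjusted p under 0.05. With it the log2 fold change was 0.79 instead of 2.04 for Alb and 0.86 instead of 2.47 for Apoa1. Other hepatocyte genes moved less, with 4.96 instead of 5.71 for Selenbp2 and 1.37 instead of 1.31 for Ass1.

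The hepatocyte-like cells themselves were few, with 2 and 1 cells in WT and 9, 13, 18 and 11 in YAP3d. Their share was 0.384 and 0.0706% in WT and 3.2, 2.94, 4.26 and 0.431% in YAP3d, the 95% intervals by the exact Clopper-Pearson method (counting error alone) being 0.0465 to 1.38% and 0.00179 to 0.393% in WT and 1.48 to 5.99%, 1.57 to 4.98%, 2.55 to 6.66% and 0.215 to 0.770% in YAP3d. The interval of YAP3d replicate 4 overlapped those of both WT libraries. The 4 YAP3d shares nevertheless all lay above WT (2.71% ± 1.62 against 0.227% ± 0.222, SD over libraries). The exact two-sided permutation test of 2 against 4 libraries gave p 0.133, with 0.0667 as the smallest p the design allows, and adjusted p 0.693 over the 13 classes. Hepatocyte-like cells held 47.1 and 1.98% of the UMIs of the hepatocyte list in WT and 82, 78, 76.9 and 46.8% in YAP3d. Whether the differing number of hepatocytes carried through the isolation played a part in the levels was not tested.

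**Figure D1:**
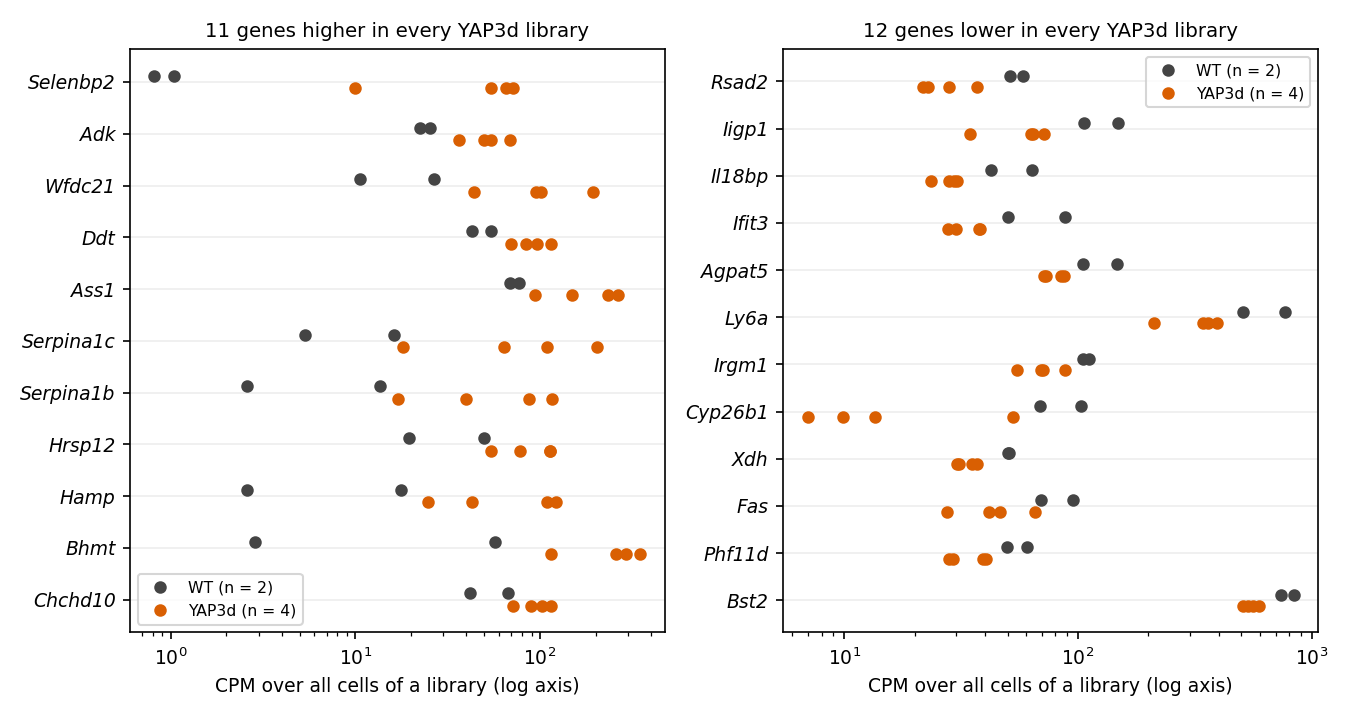
Each point is 1 library, placed by its CPM over all cells (log axis), for 11 of the 12 higher genes (left) and the 12 lower genes (right) that ranked first by unadjusted edgeR p among those that did not overlap and reached 50 CPM. The left panel holds mostly hepatocyte genes, from Selenbp2 with 1.04 and 0.818 CPM in WT to Chchd10 with 67.3 and 42 CPM, and the right panel mostly interferon-inducible and endothelial genes.

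Interferon-inducible genes made up many of the named genes that were lower. These genes carry out antiviral defence downstream of the interferon receptors and are switched on through factors that include the IRF family. Of 28 tested members of a list of type I interferon-stimulated genes 25 had a negative log2 fold change, with a median of -0.40 (-0.47 without YAP3d replicate 2), and 7 did not overlap, which is 25% against the 7.95% of all genes. Rsad2, the antiviral enzyme viperin (chromosome 12, 26442743 to 26456452), had 51.1 and 58.2 CPM in WT and 21.7, 22.8, 37 and 28 CPM in YAP3d (log2 fold change -1.01, SE 0.245, unadjusted edgeR p 0.00315). The RNA-binding Ifit3 (chromosome 19, 34583119 to 34588982) had 50.1 and 87.8 CPM in WT and 38, 27.8, 29.9 and 37.8 CPM in YAP3d (log2 fold change -1.07, SE 0.281, unadjusted edgeR p 0.00494, -1.44 to -0.55 with a library left out), and its near-identical neighbour Ifit3b, with which it can share reads, had 29.2 and 39 CPM in WT and 14, 12.2, 17 and 15.2 CPM in YAP3d (log2 fold change -1.25, SE 0.234, unadjusted edgeR p 0.000672). Rsad2 and Ifit3 were named for lying below WT in all 4 YAP3d libraries, so their separation was set by the choice. Ifit3b, named for the size of its change, was also below WT in all 4.

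Bst2, which encodes tetherin and ties budding virus to the cell (chromosome 8, 71534255 to 71537472), was the most abundant of the 7 at 740.4 and 837 CPM in WT and 534, 509.8, 559.8 and 595 CPM in YAP3d (log2 fold change -0.53, SE 0.185, unadjusted edgeR p 0.02). Isg15, a ubiquitin-like modifier, had 257 and 262 CPM in WT and 173, 224, 140.3 and 138 CPM in YAP3d, and Ifi44 had 35.5 and 40.5 CPM in WT and 19.4, 11.9, 24.1 and 17.7 CPM in YAP3d. Ddx58, the RNA sensor RIG-I, had 53.2 and 44.2 CPM in WT and 38.8, 36.7, 41.7 and 31.3 CPM in YAP3d. These 4 genes are among the 7 that did not overlap, the gap being smallest in Ddx58. Other members went with YAP3d replicate 2 instead. Ifi27l2a had 478 and 904 CPM in WT and 567, 1840, 428 and 607 CPM in YAP3d and Zbp1, a nucleic acid sensor, had 64.7 and 73.3 CPM in WT and 77.6, 121, 55.2 and 47.8 CPM in YAP3d, the highest value in both being that of YAP3d replicate 2. The summed level of 29 members therefore overlapped, at 2941 and 3550 CPM in WT and 2420, 3984, 2295 and 2238 CPM in YAP3d.

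The interferon-gamma GTPases, which attack vacuoles of intracellular pathogens, gave a median of -0.31 over 16 tested genes, of which 14 were below 0 and 4 did not overlap, which is 25% against 7.95% of all genes that were lower without overlap. Iigp1 had 149 and 106 CPM in WT and 62.8, 34.4, 71.6 and 64.3 CPM in YAP3d (log2 fold change -1.13, SE 0.281, unadjusted edgeR p 0.00363). Irgm1 (chromosome 11, 48865245 to 48871420) had 112 and 105 CPM in WT and 87.7, 69.7, 71 and 55 CPM in YAP3d (log2 fold change -0.64, SE 0.192, unadjusted edgeR p 0.00992), and its relative Irgm2 had 27.6 and 22.5 CPM in WT and 18.6, 13.6, 20.5 and 11.3 CPM in YAP3d. The guanylate-binding protein gene Gbp2b had 17.7 and 10.6 CPM in WT and 6.98, 1.65, 4.7 and 3.82 CPM in YAP3d. Ifi47, the most abundant member, had 136 and 121 CPM in WT and 158, 136, 125 and 77.3 CPM in YAP3d and overlapped. Among other interferon-inducible genes, Ly6a, which encodes the interferon-inducible surface protein Sca-1 (chromosome 15, 74994877 to 74998031), had 509 and 769.9 CPM in WT and 393, 211, 358 and 344 CPM in YAP3d (log2 fold change -1.0, SE 0.277, unadjusted edgeR p 0.00666, -1.30 to -0.62 with a library left out), and Il18bp, which encodes a decoy for interleukin 18, had 42.3 and 63.7 CPM in WT and 29.5, 23.5, 28.2 and 30.3 CPM in YAP3d (log2 fold change -0.95, SE 0.242, unadjusted edgeR p 0.00414, -1.24 to -0.56 with a library left out). Phf11d had a log2 fold change of -0.70. The transcription factor gene Irf7 had 86.6 and 173 CPM in WT and 83, 154, 95.7 and 93.3 CPM in YAP3d and overlapped, as did the cytokine gene Ifng at 212 and 99.9 CPM in WT and 161, 56.8, 134 and 51.1 CPM in YAP3d.

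Several of the lower interferon-inducible genes held a short element before their start, which the choice of genes did not use, and others did not. The element is GAAANNGAA, the core of the site that IRF factors bind, searched on both strands. The 250 bases before the annotated start are shown for 4 genes with matches and for Ddx58, which had none. Matches are in capitals, whichever strand they lie on, overlapping matches forming 1 run. Sequences are 5′ to 3′ on the gene's strand, from RefSeq on GRCm38.p6.
Rsad2 (chr12:26456453-26456702, minus strand): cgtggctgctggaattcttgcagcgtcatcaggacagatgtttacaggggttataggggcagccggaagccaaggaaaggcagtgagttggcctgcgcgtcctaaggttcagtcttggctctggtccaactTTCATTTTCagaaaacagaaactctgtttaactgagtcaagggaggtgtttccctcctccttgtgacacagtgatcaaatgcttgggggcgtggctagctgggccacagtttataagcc
Bst2 (chr8:71537473-71537722, minus strand): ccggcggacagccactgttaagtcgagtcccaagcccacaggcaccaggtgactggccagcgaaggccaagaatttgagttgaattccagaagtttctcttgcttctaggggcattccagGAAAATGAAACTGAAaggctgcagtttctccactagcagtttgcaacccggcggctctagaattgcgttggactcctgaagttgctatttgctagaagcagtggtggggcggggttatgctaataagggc
Isg15 (chr4:156200819-156201068, minus strand): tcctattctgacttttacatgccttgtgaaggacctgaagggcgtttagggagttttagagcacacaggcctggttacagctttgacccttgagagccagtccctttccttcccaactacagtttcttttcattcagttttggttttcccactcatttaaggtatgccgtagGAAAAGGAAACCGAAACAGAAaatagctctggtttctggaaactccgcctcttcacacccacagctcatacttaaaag
Irgm1 (chr11:48871421-48871670, minus strand): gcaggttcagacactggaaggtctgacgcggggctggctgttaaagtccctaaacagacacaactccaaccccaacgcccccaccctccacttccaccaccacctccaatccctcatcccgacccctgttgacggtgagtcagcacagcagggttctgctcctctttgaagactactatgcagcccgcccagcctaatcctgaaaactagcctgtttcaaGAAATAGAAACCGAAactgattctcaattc
Ddx58 (chr4:40239826-40240075, minus strand): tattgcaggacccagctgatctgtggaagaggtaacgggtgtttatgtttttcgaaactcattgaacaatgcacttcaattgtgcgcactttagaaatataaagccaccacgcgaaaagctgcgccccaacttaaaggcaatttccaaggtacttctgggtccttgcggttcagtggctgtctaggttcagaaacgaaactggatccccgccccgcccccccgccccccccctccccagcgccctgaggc
Isg15 held 3 matches, Bst2 and Irgm1 held 2, and Rsad2 held 1. Of 32 genes of both interferon lists with a RefSeq promoter, 23 held at least 1 match in the 250 bases before an annotated transcript start, against 8.18% of all 27025 genes. Ifi44, Ddx58 and Il18bp held no match in this window. A match is a description of the letters and no evidence of binding in these cells.

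The next question was whether the interferon-inducible genes were lower within single cell classes, where the mix of cells plays a smaller part. UMIs were summed per library within the 6 classes that had at least 10 cells in each of the 6 libraries, and no gene had an adjusted p under 0.05 with edgeR in any of them. The median log2 fold change of the type I list was -0.63 in cells resembling NK cells or ILC1 (10 genes tested, 9 below 0), -0.43 in T-cell-like cells (19, 15), -0.38 in endothelial-like cells (24, 22) and -0.53 in macrophage-like cells (21, 18). Without YAP3d replicate 2 the macrophage-like median was -0.24. The median was -0.06 in B-cell-like cells with 4 genes tested, and 0.25 in dendritic-like cells (13, 5), where it was -0.11 without YAP3d replicate 2. The number of members lower without overlap was 2 of 10 in the NK or ILC1 class, 2 of 19 in T-cell-like, 2 of 24 in endothelial-like and 4 of 21 in macrophage-like cells, beside 4.14, 4, 4.32 and 3.46% of all genes tested there.

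The summed level of the type I list overlapped between the groups in B-cell-like, T-cell-like, dendritic-like, endothelial-like and macrophage-like cells. In the NK or ILC1 class it was 1677 and 1438 CPM in WT and 1213, 949, 885 and 1010 CPM in YAP3d, with every YAP3d library below WT. The GTPases in endothelial-like cells summed to 997 and 1135 CPM in WT and 888, 909, 777 and 678 CPM in YAP3d, again without overlap, and 10 of 11 members had a negative log2 fold change (median -0.50). In macrophage-like cells 9 of 10 were negative (median -0.77), but the sums overlapped at 1581 and 783 CPM in WT and 803, 456, 679 and 655 CPM in YAP3d. The GTPases were not lower in the other classes. Their median was -0.01 in T-cell-like cells (5 of 10 below 0), 0.01 in the NK or ILC1 class (2 of 5) and 0.65 in dendritic-like cells (1 of 3). None was tested in B-cell-like cells. Oas1a and Oas1g, antiviral oligoadenylate synthetases that are close copies, were lower without overlap in macrophage-like cells. Oas1a had 105 and 135 CPM in WT and 56, 68.2, 50.3 and 61.4 CPM in YAP3d. Oas1g had 52.7 and 65.9 CPM in WT and 0, 12.2, 25.2 and 16.4 CPM in YAP3d, on at most 8 UMIs per YAP3d library. In T-cell-like cells Ly6a had 461 and 437 CPM in WT and 348, 354, 315 and 247 CPM in YAP3d (log2 fold change -0.55, SE 0.163, unadjusted edgeR p 0.00607), and Ly6c2, another surface protein of the same family, had 528 and 694 CPM in WT and 449, 359, 466 and 345 CPM in YAP3d (log2 fold change -0.64, SE 0.197, unadjusted edgeR p 0.00752). Genes for MHC class I presentation went the same way in the NK or ILC1 class, where 15 of 16 were negative with a median of -0.24 and 5 did not overlap, beside 4.14% of all genes of the class that were lower without overlap, among them B2m at 6174 and 6685 CPM in WT and 6011, 5025, 5331 and 5669 CPM in YAP3d.

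**Figure D2:**
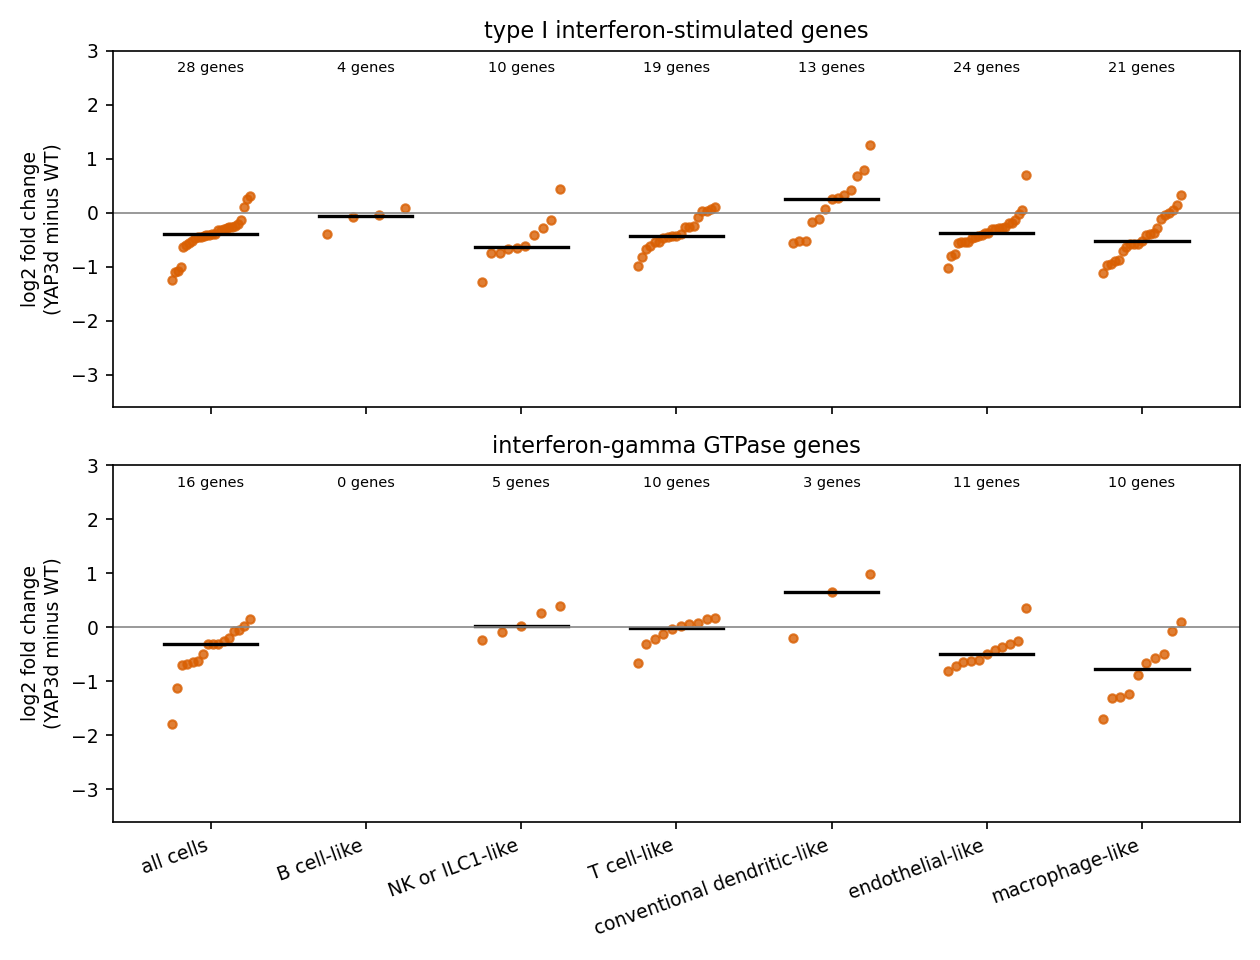
Each point is 1 gene of the list, placed by its log2 fold change (YAP3d minus WT, edgeR) in counts summed over all cells or within 1 cell class, the black bar is the median and the number of genes tested is given above. The points lie mostly below 0 for both lists in endothelial-like and macrophage-like cells, and for the type I list also in T-cell-like cells and the NK or ILC1 class. Dendritic-like cells have their median above 0.

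The third question was how the make-up of the suspension differed. Clusters were named after 13 classes by fixed markers, and no cell was left unnamed. Endothelial-like cells were the most numerous class over the 6 libraries together, though not in YAP3d replicates 1 and 2, and had the largest difference of mean shares among the 13 classes, with 53 and 35.5% in WT and 26.7, 11.5, 38.4 and 30.2% in YAP3d. WT replicate 2 lay below YAP3d replicate 3, so the groups overlapped (44.2% ± 12.4 against 26.7% ± 11.2, SD over libraries). The exact permutation test gave p 0.267 and adjusted p 0.693. Without YAP3d replicate 2 the difference of -17.5 percentage points became -12.4, and it was -8.74 without WT replicate 1 and -26.3 without WT replicate 2. T-cell-like cells had shares of 20.1 and 25.2% in WT and 31, 26.5, 26.5 and 23.1% in YAP3d, and dendritic-like cells of 3.07 and 4.03% in WT and 6.05, 4.3, 6.16 and 3.76% in YAP3d. Both overlapped (exact permutation p 0.267 each). B-cell-like cells had shares of 7.87 and 14.6% in WT and 13.5, 7.24, 9.01 and 26.5% in YAP3d, the highest being that of YAP3d replicate 4.

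Among myeloid cells, monocyte-like cells had shares of 2.5 and 4.8% in WT and 2.49, 23.3, 2.84 and 3.57% in YAP3d. The mean difference of 4.4 percentage points became -0.681 without YAP3d replicate 2, which held 103 of the 213 YAP3d monocyte-like cells. Macrophage-like cells had shares of 5.37 and 5.16% in WT and 3.92, 9.73, 5.45 and 2.86% in YAP3d, and neutrophil-like cells of 0.96 and 1.7% in WT and 2.13, 3.39, 1.42 and 1.73% in YAP3d. In both YAP3d replicate 2 was the highest. Cells resembling NK cells or ILC1 had shares of 4.99 and 5.79% in WT and 8.19, 9.05, 3.56 and 4.55% in YAP3d, and plasmacytoid dendritic-like cells of 1.15 and 1.2% in WT and 1.07, 1.36, 0.237 and 2.23% in YAP3d. Cholangiocyte-like, mesenchymal-like and basophil- or mast-like cells numbered 22, 14 and 8 in YAP3d and 17, 8 and 6 in WT.

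**Figure D3:**
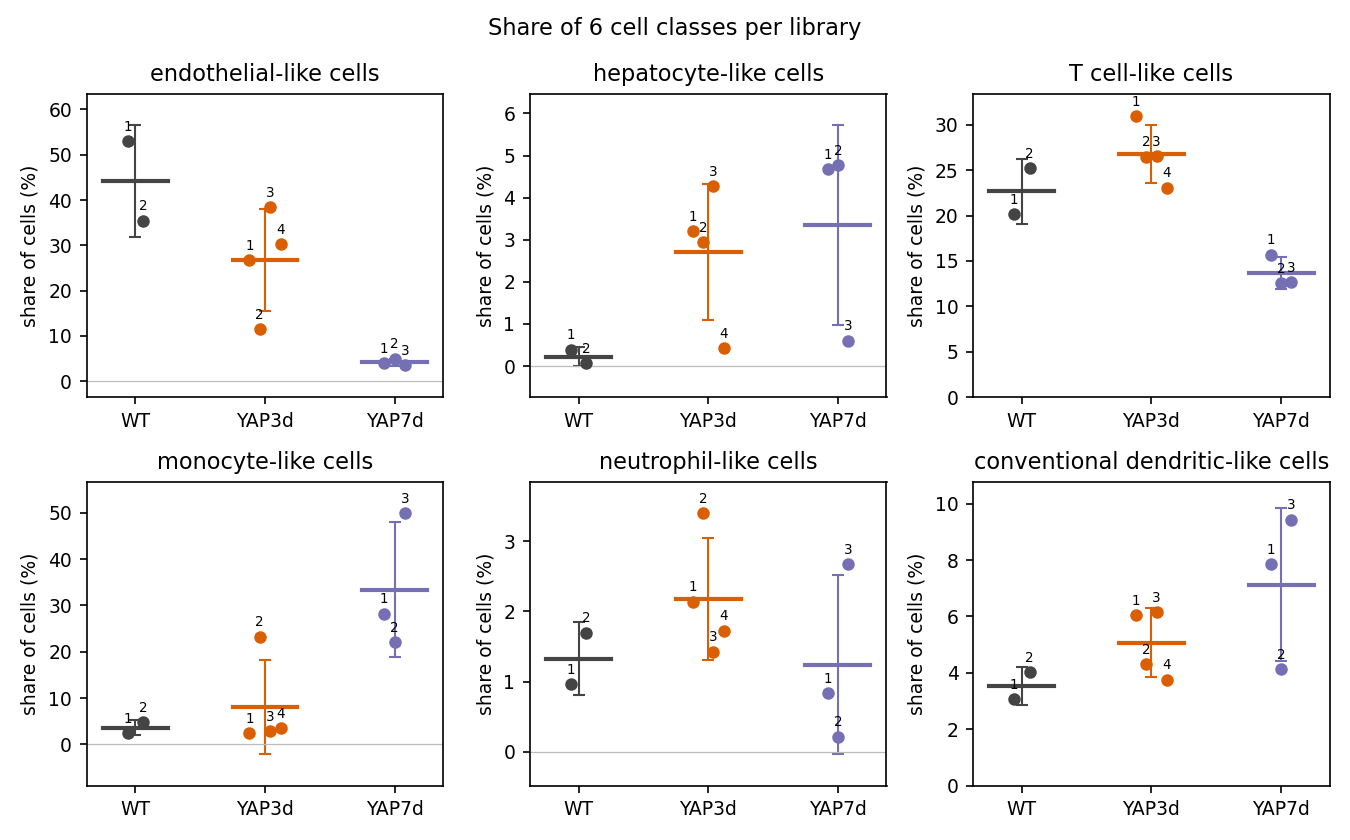
Points are libraries, numbered by replicate, with the share of their cells (%) in 6 classes, the bar giving the mean and the whisker 1 SD. Hepatocyte-like cells are the class in which all 4 YAP3d libraries lie above WT, YAP3d replicate 4 only barely, and monocyte-like cells are high in YAP3d replicate 2 as in the YAP7d libraries.

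Endothelial genes were lower over all cells, beside the smaller share of endothelial-like cells. All 21 tested members of the sinusoidal endothelial list were below 0, with a median of -0.76 (-0.42 without YAP3d replicate 2), and 9 were lower without overlap, which is 42.9% against 7.95% of all genes. Clec4g, a lectin of the sinusoid, had 2167 and 2175 CPM in WT and 1227, 364, 1444 and 1643 CPM in YAP3d, and Wnt2, an angiocrine factor for hepatocytes, had 170.1 and 154 CPM in WT and 53.5, 19.5, 91 and 127 CPM in YAP3d. Both were lower in each YAP3d library, and lowest in YAP3d replicate 2, which also had the smallest endothelial-like share. Within endothelial-like cells the same list had a median of -0.04, with 14 of 21 below 0. Its summed level there was 24820 and 26120 CPM in WT and 24560, 22200, 22590 and 24160 CPM in YAP3d, all 4 YAP3d libraries being below WT, with a mean 0.918 times that of WT and YAP3d replicate 1 close to WT replicate 1. Clec4g there had 4838 and 6585 CPM in WT and 5422, 4836, 4325 and 5350 CPM in YAP3d and overlapped. Fcgr2b, the inhibitory Fc receptor of these cells, had 2302 and 2439 CPM in WT and 1873, 1864, 1776 and 2264 CPM in YAP3d (log2 fold change -0.29, SE 0.137, unadjusted edgeR p 0.0494), and the endocytic gene Ehd3 had 2549 and 2654 CPM in WT and 2213, 2007, 2360 and 2277 CPM in YAP3d. Flt4, which encodes VEGF receptor 3, had 291 and 329 CPM in WT and 361, 424, 353 and 403 CPM in YAP3d. These 3 were the members without overlap, 2 lower and 1 higher.

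Endothelial-like cells had the most genes tested, with 216707 to 3706047 UMIs per library and 7460 genes, of which 4.62% were higher and 4.32% lower without overlap. The class was spread unequally over clusters. A cluster led by F8, Fam167b and Erg held 38.8 and 8.37% of it in WT and 45.3, 27.5, 40.1 and 3.5% in YAP3d, while one led by F8, Bmp2 and Cldn5 held 28.3 and 51.8% in WT and 34.7, 45.1, 30.9 and 58.6% in YAP3d. The first was the largest in WT replicate 1 and YAP3d replicates 1 and 3, the second in the other libraries. The median ratio of a cell's UMIs to its library's median was 0.454 in the first cluster and 1.37 in the second. The smallest cell held 835 UMIs in WT replicate 1, and 822 and 826 in YAP3d replicates 1 and 3. In WT replicate 2 and YAP3d replicates 2 and 4 it held 1510, 1601 and 1734. The part of cell depth in this split was not tested. Bok, a pro-apoptotic member of the BCL-2 family, had 97 and 117 CPM in WT and 288, 171, 220.3 and 188 CPM in YAP3d (log2 fold change 0.98, SE 0.215, unadjusted edgeR p 0.000466). Inhbb, which encodes the beta B subunit of activin B, had 24.8 and 29.4 CPM in WT and 52, 152, 94.9 and 47.8 CPM in YAP3d (log2 fold change 1.48, SE 0.392, unadjusted edgeR p 0.0022). Ccnd1 had 255 and 248 CPM in WT and 465, 697, 355 and 302 CPM in YAP3d (log2 fold change 0.79, SE 0.262, unadjusted edgeR p 0.00938), the only YAP target among 12 tested whose groups did not overlap here. The YAP target list had a median of 0.10 and a summed level of 1280 and 1250 CPM in WT and 1651, 1767, 1570 and 1284 CPM in YAP3d, YAP3d replicate 4 lying just above WT.

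On the lower side Ly6a had 776 and 1486 CPM in WT and 676, 609, 655 and 565 CPM in YAP3d (log2 fold change -0.87, SE 0.198, unadjusted edgeR p 0.000656), its WT libraries differing from each other more than YAP3d from WT replicate 1. Adam23, a surface protein that binds integrins, had 745 and 582 CPM in WT and 479, 359.9, 444 and 409 CPM in YAP3d (log2 fold change -0.66, SE 0.163, unadjusted edgeR p 0.00129), and Iigp1 had 296 and 299 CPM in WT and 187, 240.0, 168 and 199 CPM in YAP3d (log2 fold change -0.61, SE 0.17, unadjusted edgeR p 0.00311). Cyp26b1, which breaks down retinoic acid, had 222 and 204 CPM in WT and 27.8, 138, 154 and 42.6 CPM in YAP3d here and 103 and 68.7 CPM in WT and 6.98, 9.91, 52.8 and 13.6 CPM in YAP3d over all cells, where YAP3d replicate 3 was well above the other induced libraries. Il6st, the signalling subunit of interleukin-6 receptors, had 733 and 823 CPM in WT and 444, 402, 599.9 and 606 CPM in YAP3d, and the cytokine gene Il6 over all cells had 24 and 22.6 CPM in WT and 18.6, 5.62, 9.98 and 6.72 CPM in YAP3d. Over all cells Fas, a death receptor, had 95 and 69.1 CPM in WT and 46.5, 27.4, 65.1 and 41.7 CPM in YAP3d, Xdh, xanthine dehydrogenase, had 50.1 and 50.6 CPM in WT and 30.3, 35.4, 37 and 30.9 CPM in YAP3d, and the lipid enzyme gene Agpat5 had 147 and 105 CPM in WT and 84.6, 71.7, 87.4 and 73.3 CPM in YAP3d. All YAP3d libraries lay below WT in these 6 genes, which the rule that named Cyp26b1, Fas, Xdh and Agpat5 required.

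Hepatocyte transcripts were also higher inside the endothelial-like class. Of 16 list members tested there, 13 were above 0 (median 0.78) and 8 were higher without overlap, beside 4.62% of all genes of the class. Alb had 36.6 and 24.2 CPM in WT and 69.4, 78.5, 53.7 and 62.1 CPM in YAP3d (log2 fold change 1.12, SE 0.265, unadjusted edgeR p 0.000891), and the whole list summed to 533 and 359 CPM in WT and 666, 669, 709 and 649 CPM in YAP3d. For comparison, the list summed to 104 and 208 CPM in WT and 186, 209.9, 280.1 and 241 CPM in YAP3d in B-cell-like cells and to 151 and 206 and 244, 159.7, 197 and 271 CPM in T-cell-like cells. In the NK or ILC1 class it summed to 136 and 96.4 CPM in WT and 1749, 80.3, 262 and 224 CPM in YAP3d, and in dendritic-like cells to 359 and 384 and 330.2, 336, 430.3 and 447 CPM. Macrophage-like cells had 5337 and 4994 CPM in WT and 4295, 1597, 4491 and 5738 CPM in YAP3d, with a lower mean in YAP3d. The groups overlapped in these 5 classes. Hepatocyte-like cells themselves held 83860 to 114500 CPM of it. Free RNA or doublets as a source of these transcripts were not tested.

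**Figure D4:**
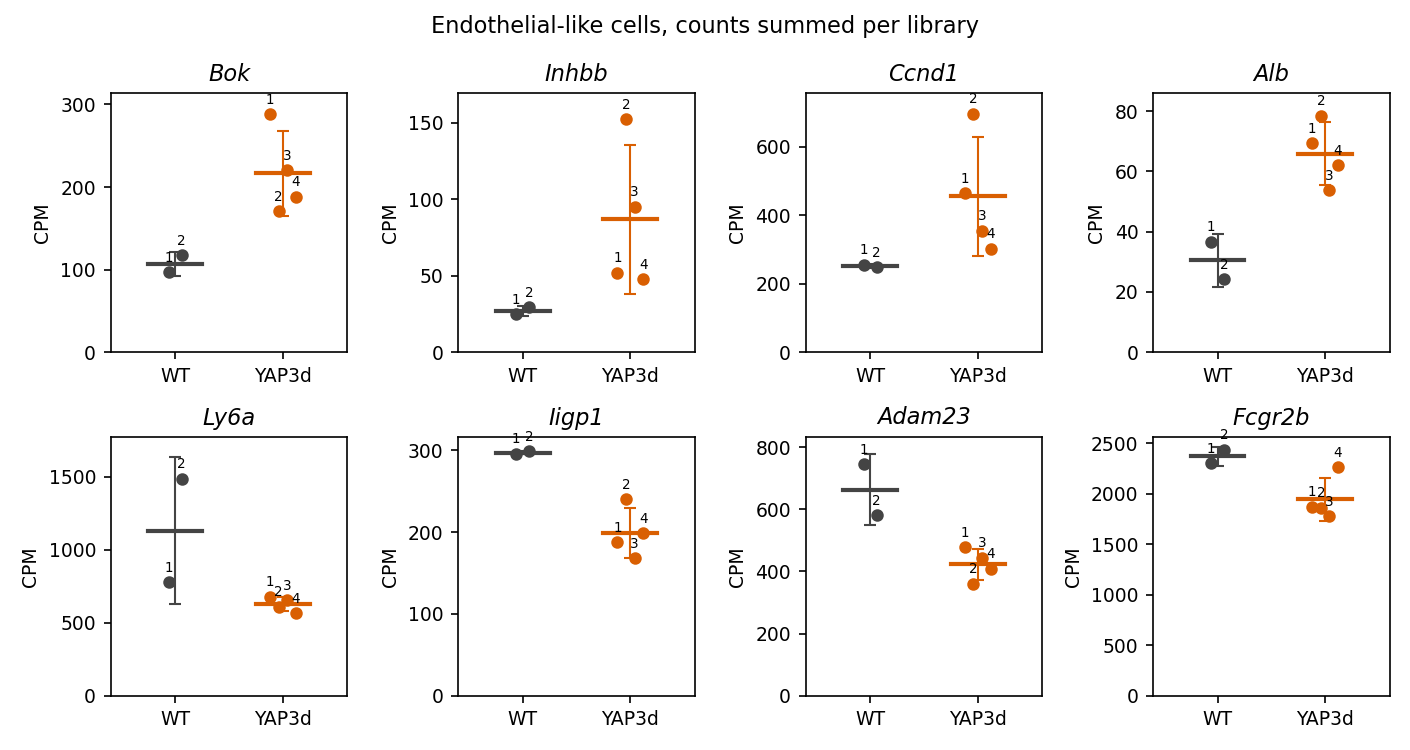
Points are libraries, numbered by replicate, with CPM of 8 genes in UMIs summed over endothelial-like cells, bars giving the mean and whiskers 1 SD. The WT and YAP3d points do not overlap in any of the 8, most of which were chosen by that rule. The gap is narrowest in Fcgr2b and in Ly6a, where WT replicate 1 lies close to YAP3d.

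Cell division genes had medians on either side of 0 in different classes. In dendritic-like cells 17 of the 39 mitosis genes passed the count filter. All 17 were below 0, with a median log2 fold change of -1.46 (-1.13 without YAP3d replicate 2). Of them 13 did not overlap, against 3.78% of the 3279 genes tested in that class. The filter can let a gene in through WT alone, as with Kif23 below, so these signs and counts are partly set by it. None of the 17 had an adjusted p under 0.05 with edgeR. Over all genes tested in the class, not the list alone, DESeq2 called 2, both lower. The summed level of the list was 6703 and 3570 CPM in WT and 1975, 1315, 2162 and 2868 CPM in YAP3d. Hmgb2, a chromatin protein of dividing cells, had 1728 and 878 CPM in WT and 482, 319, 384 and 718 CPM in YAP3d (log2 fold change -1.48, SE 0.359, unadjusted edgeR p 0.00174). Kif23, a kinesin of cytokinesis, had 80.5 and 78.8 CPM in WT and 37.9, 35, 35.9 and 37.3 CPM in YAP3d (log2 fold change -1.18, SE 0.319, unadjusted edgeR p 0.00355), and Ube2c, a ubiquitin enzyme of mitotic exit, had 235 and 152 CPM in WT and 0, 17.5, 30.7 and 75.3 CPM in YAP3d (log2 fold change -2.23, SE 0.623, unadjusted edgeR p 0.00442). H2afx, a histone variant that marks DNA breaks when phosphorylated, had 428 and 199.8 CPM in WT and 65, 39.3, 76.8 and 121 CPM in YAP3d (log2 fold change -1.95, SE 0.428, unadjusted edgeR p 0.00086). Mki67 and Top2a, the usual proliferation markers, overlapped between the groups. Mki67 had 266 and 75.8 CPM in WT and 81.2, 74.3, 133 and 45.3 CPM in YAP3d. Top2a had 378 and 109 CPM in WT and 108, 35, 138 and 68.7 CPM in YAP3d. In both WT replicate 1 was the highest and WT replicate 2 within the YAP3d range.

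DNA replication genes did not follow in dendritic-like cells, with a median of 0.29 over 14 tested. The class rested on 16 and 57 cells in WT and 17, 19, 26 and 96 in YAP3d, and in each library more of them lay in the cluster led by Elane, Cd209a and Ccl17 than in that led by Xcr1 and Clec9a, the former holding 55.2 to 84.2%. The granule genes Elane and Mpo of myeloid precursors had 145 and 107 UMIs in the class in WT replicate 2, 256 and 94 in YAP3d replicate 4 and 0 in the other 4 libraries. The part of such precursors in the mitosis values was not tested. Other genes of the class were Ccl4, a chemokine, at 1530 and 1217 CPM in WT and 433, 669, 384 and 703 CPM in YAP3d (log2 fold change -1.39, SE 0.274, unadjusted edgeR p 0.000379), and Lmna, lamin A/C, at 6.2 and 8.75 CPM in WT and 70.4, 205, 10.2 and 57 CPM in YAP3d (log2 fold change 3.21, SE 0.961, unadjusted edgeR p 0.00676, 2.48 without YAP3d replicate 2). Nme1, a nucleotide kinase, and Cfp, properdin, were higher without overlap by 0.86 and 0.96 on the log2 scale. Heat-shock genes had a median of 0.58 over 18 tested, 2 of them higher without overlap beside 7.41% of all genes.

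In endothelial-like cells 16 of the 39 mitosis genes passed the count filter. All 16 were above 0, with a median of 1.76 (1.70 without YAP3d replicate 2). Of these, 3 were higher without overlap, beside 4.62% of all genes of the class. The filter can let a gene in through YAP3d alone, so these signs and counts are partly set by it. Summed over all 39 genes the level was 1150 and 1423 CPM in WT and 2130, 2100, 2387 and 1339 CPM in YAP3d. YAP3d replicates 1 to 3 were above WT and YAP3d replicate 4 lay between the WT libraries. Top2a had 4.73 and 6.91 CPM in WT and 38.2, 27.7, 80.6 and 4.32 CPM in YAP3d (log2 fold change 2.33, SE 0.932, unadjusted edgeR p 0.0256) and Stmn1, a microtubule regulator, 29.6 and 50.6 CPM in WT and 135, 157, 208 and 38.6 CPM in YAP3d. Tpx2, a spindle factor, had 1.18 and 2.16 CPM in WT and 24.3, 4.62, 19.7 and 3.78 CPM in YAP3d and was 1 of the 3 without overlap. It is near the floor, WT replicate 1 and YAP3d replicate 2 holding 845770 and 216707 UMIs in the class. Its low values there stand for very few molecules. DNA replication genes had a median of 0.49 (0.28 without YAP3d replicate 2), 17 of 18 being above 0 and 4 higher without overlap. The mitosis median was -0.71 in the NK or ILC1 class (-1.05 without YAP3d replicate 2), where 5 of 6 genes were below 0. The list summed there to 880.5 and 3849 CPM in WT and 863, 2659, 1026 and 815 CPM in YAP3d. WT replicate 2 was thus the highest and WT replicate 1 lay within the YAP3d range. In macrophage-like cells the mitosis median was 0.70 with 8 of 8 genes above 0, but -0.03 without YAP3d replicate 2. It was 0.10 over 12 genes in T-cell-like cells (-0.04 without that library) and 0.34 over 4 in B-cell-like cells. Differences between classes were noticed in these data and were not tested. Over all cells the mitosis list overlapped at 1646 and 1660 CPM in WT and 1405, 1978, 1864 and 1332 CPM in YAP3d.

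**Figure D5:**
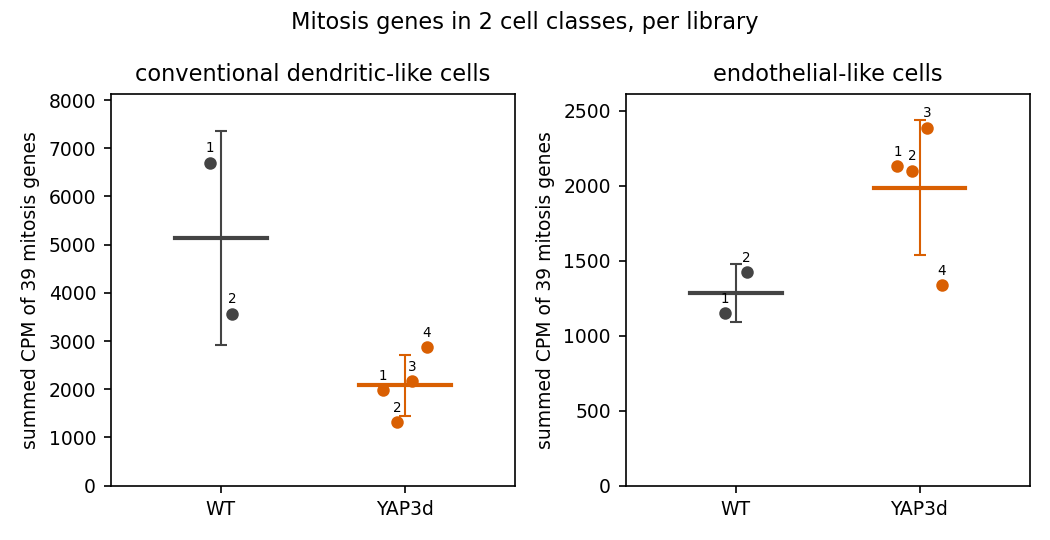
Points are libraries, numbered by replicate, with the summed CPM of 39 mitosis genes in dendritic-like (left) and endothelial-like cells (right), bars giving the mean and whiskers 1 SD. The YAP3d libraries all lie below WT on the left, and on the right 3 of 4 lie above both WT libraries.

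Macrophage-like cells had 11 to 73 cells per library. A cluster led by Prg4, Alox15 and Saa3 held 20.5% of them in WT replicate 2, 4.65% in YAP3d replicate 2, 5.48% in YAP3d replicate 4 and 0 in the others. Of the genes tested, 3695 in all, 6.17% were higher and 3.46% lower without overlap. MHC class II genes, which present antigen, had a median of -0.93 (-0.51 without YAP3d replicate 2), all 6 tested being below 0 and 3 without overlap. Cd74, the invariant chain, had 7748 and 7248 CPM in WT and 4986, 329, 3875 and 5453 CPM in YAP3d, and H2-Ab1 had 3110 and 2501 CPM in WT and 2035, 163, 1019 and 1882 CPM in YAP3d. YAP3d replicate 2 was by far the lowest in both. The Kupffer identity list had a median of -0.12 (0.06 without YAP3d replicate 2) over 19 genes, none without overlap. Ccr3, a chemokine receptor, had 0 and 16.9 CPM in WT and 131, 53.6, 37.7 and 168 CPM in YAP3d, which is 0 and 11 UMIs in WT and 7, 22, 3 and 82 in YAP3d (log2 fold change 2.74, SE 0.745, unadjusted edgeR p 0.00261). Anxa6, a membrane-binding annexin, had 145 and 90.4 CPM in WT and 18.7, 43.9, 37.7 and 57.3 CPM in YAP3d. The kinase gene Cdk11b was higher by 1.29 on the log2 scale without overlap.

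In the NK or ILC1 class 4.72% of 2754 genes were higher and 4.14% lower without overlap. Dusp1, a phosphatase that shuts off stress kinases, had 859.5 and 876 CPM in WT and 514, 364, 483 and 587 CPM in YAP3d (log2 fold change -0.83, SE 0.223, unadjusted edgeR p 0.00164), and Mcl1, a survival factor of the BCL-2 family, had 105 and 104 CPM in WT and 229.5, 189, 241 and 164 CPM in YAP3d (log2 fold change 0.88, SE 0.298, unadjusted edgeR p 0.00875). Cdkn1b, the cell cycle inhibitor p27, had 73.4 and 50.9 CPM in WT and 175, 161, 241 and 75.5 CPM in YAP3d. The groups were separate in all 3, as the rule that named them required. The splicing factor gene Rbm5 was higher by 1.20 and the growth factor gene Hdgf lower with -0.91 on the log2 scale. The cytotoxic list, in contrast, had a median of 0.00 over 17 genes.

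In T-cell-like cells 3.73% of 5904 genes were higher and 4% lower without overlap. Genes of oxidative phosphorylation leaned down, 64 of 75 having a negative log2 fold change with a median of -0.13 and 11 lower without overlap. Uqcr10, of respiratory complex III, had 279 and 296 CPM in WT and 192, 266, 197 and 216 CPM in YAP3d (log2 fold change -0.42, SE 0.192, unadjusted edgeR p 0.0507). DNA replication genes had a median of -0.27 (-0.52 without YAP3d replicate 2), 18 of 20 being below 0 and 3 without overlap. Wdr26 had 51 and 49.5 CPM in WT and 80.5, 76.4, 89.4 and 82.4 CPM in YAP3d (log2 fold change 0.70, SE 0.215, unadjusted edgeR p 0.00746), Keap1, the sensor of oxidative stress, had 28.8 and 38 CPM in WT and 75.3, 67.7, 61 and 40.9 CPM in YAP3d, and the elongation factor gene Ccnt1 was higher by 0.71 on the log2 scale. A cluster of 22 T-cell-like cells led by Gzmk and Pdcd1 came from YAP3d replicate 2 alone.

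In B-cell-like cells 4.15% of 2000 genes were higher and 3.8% lower without overlap. Stip1, a co-chaperone, had 48.2 and 49.3 CPM in WT and 159.5, 73, 199 and 66.8 CPM in YAP3d (log2 fold change 1.14, SE 0.452, unadjusted edgeR p 0.0235), and the RNA polymerase subunit gene Polr2l had 80.4 and 109.9 CPM in WT and 26.6, 45.6, 59 and 56.5 CPM in YAP3d. Polr2l was also lower without overlap in the NK or ILC1 class, at 94.3 and 179.5 CPM in WT and 76.5, 85, 40.2 and 60.8 CPM in YAP3d. AY036118 and Rasgef1b were higher by 1.65 and 1.0, and Usf2 and Gm9844 were at -0.74 and -1.30 on the log2 scale. B cell identity genes had a median of 0.03 over 12 genes, none without overlap.

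Among the remaining lists over all cells, neutrophil genes had all 12 tested members above 0, with a median of 1.13 (0.61 without YAP3d replicate 2) and 4 higher without overlap, which is 33.3% against 4.54% of all genes. S100a8, an alarmin subunit, had 422 and 562 CPM in WT and 584, 2000, 569 and 1114 CPM in YAP3d, and Wfdc21, a member of the list, had 26.6 and 10.6 CPM in WT and 94.7, 194, 102 and 44 CPM in YAP3d (log2 fold change 2.62, SE 0.639, unadjusted edgeR p 0.00331, 2.05 to 3.29 with a library left out). YAP3d replicate 2 was the highest in both. Wfdc21 had its highest level in hepatocyte-like cells, which held 53.3% of its UMIs. Ngp, a granule gene, was listed with 0 UMIs in WT and in YAP3d replicates 1 and 3 and reached 32 and 68.5 CPM in replicates 2 and 4. Inflammatory monocyte genes had a median of 0.61 that became -0.03 without YAP3d replicate 2, Lyz2 having 1507 and 4143 CPM in WT and 1079, 7636, 1111 and 2741 CPM in YAP3d. Ccl2, the chemokine that recruits monocytes, had 10.4 and 58.6 CPM in WT and 34.9, 151, 7.63 and 40.7 CPM in YAP3d, and Csf1, the macrophage growth factor, had 33.4 and 24.3 CPM in WT and 27.1, 12.2, 19.9 and 21.2 CPM in YAP3d. Tgfb1 had 226 and 279 CPM in WT and 266, 389.9, 246 and 329 CPM in YAP3d. These cytokine genes overlapped.

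Of 35 cytokine and chemokine genes tested 2 were lower without overlap, Il6 and Cxcl16, and none higher, 5.71% against 7.95% of all genes and so no more than the background. Cxcl16, a chemokine for CXCR6 on T and NKT cells, had 144 and 164 CPM in WT and 92.3, 70, 144 and 133 CPM in YAP3d. Biliary and progenitor genes had a median of 0.06 (0.46 without YAP3d replicate 2) over 12 genes, Sox9 having 1.04 and 7.09 CPM in WT and 10.1, 0.991, 1.76 and 2.45 CPM in YAP3d and Spp1, osteopontin, 84 and 349.7 CPM in WT and 495, 25.1, 265 and 199 CPM in YAP3d, with wide overlap. The other medians over all cells are given with the value without YAP3d replicate 2 in brackets. They were -0.02 (-0.35) for Kupffer identity, 0.18 (0.26) for MHC class II, -0.11 (-0.07) for MHC class I presentation, 0.10 (0.09) for T cell genes, 0.36 (0.68) for B cell genes and 0.16 (-0.04) for cytotoxic genes, the last changing sign. Among cell processes they were 0.44 (0.22) for DNA replication, 0.14 (-0.11) for mitosis, which also changed sign, 0.20 (0.12) for glycolysis, 0.34 (0.33) for heat shock, -0.02 (-0.06) for oxidative phosphorylation, 0.01 (0.02) for immediate early genes and -0.01 (0.05) for mitochondrially encoded genes. Vessel endothelial genes had -0.63 (-0.36) and extracellular matrix genes -0.47 (-0.12). The haemoglobin genes had -1.25 (-0.80) over 4 genes, with 964 and 117 CPM in WT and 77.6, 9.91, 56.3 and 547 CPM in YAP3d in sum. The female-specific transcript Xist had 944 and 753 CPM in WT and 1016, 848, 1081 and 846 CPM in YAP3d, and the Y-linked Ddx3y had 0 UMIs in every library, as in female animals.

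The last question was how 3 days compared with 7 days of induction. In a fit of all 9 libraries 1988 of 12071 genes differed between YAP7d and YAP3d (edgeR adjusted p under 0.05), 801 higher (6.64%) and 1187 lower (9.83%) at 7 days. The count was 3569 without YAP3d replicate 2, 1128 without YAP3d replicate 1, 974 without YAP3d replicate 3 and again 974 without replicate 4, and 1304, 899 and 860 without YAP7d replicates 1, 2 and 3. This contrast shares the YAP3d libraries with the one against WT, so the values below are set side by side and not related to it. Of the 21 sinusoidal genes 17 were lower at 7 days, with a median log2 fold change of -2.96, while the endothelial-like share was 4.16% ± 0.762 (SD over 3 libraries). Of 36 mitosis genes 33 were higher (median 1.72), and of 19 Kupffer identity genes 13 were higher. Of the 30 hepatocyte genes 1 was lower, Ass1, and the others did not pass. Among the 28 type I interferon genes 2 were higher at 7 days and none lower.

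Among the genes named above, several had an adjusted p under 0.05 between 3 and 7 days. Yap1 had 3.85, 5.53 and 1.52 CPM in YAP7d (log2 fold change -1.50 against YAP3d, SE 0.432, edgeR adjusted p 0.041). Ass1 had 65.7, 66.6 and 42.5 CPM in YAP7d (log2 fold change -1.52 against YAP3d, SE 0.305, edgeR adjusted p 0.0115), below both WT libraries. Il18bp had 62, 172 and 50.4 CPM in YAP7d (log2 fold change 1.87 against YAP3d, SE 0.365, edgeR adjusted p 0.0108), and Fas had 14.9, 9.62 and 16.5 CPM in YAP7d (log2 fold change -1.50 against YAP3d, SE 0.313, edgeR adjusted p 0.0131). Cyp26b1 had 2.63, 3.12 and 4.43 CPM in YAP7d (log2 fold change -2.28 against YAP3d, SE 0.624, edgeR adjusted p 0.0342). Ass1, Fas and Cyp26b1 were lower at 7 days and Il18bp was higher. Phf11d had 61.1, 48.1 and 47.9 CPM in YAP7d (log2 fold change 0.76 against YAP3d, SE 0.188, edgeR adjusted p 0.023). Csf1 had 4.38, 2.88 and 2.59 CPM in YAP7d (log2 fold change -2.46 against YAP3d, SE 0.30, edgeR adjusted p 0.00652) and Axl had 111, 172 and 117 CPM in YAP7d (log2 fold change 1.64 against YAP3d, SE 0.40, edgeR adjusted p 0.0223). For Rsad2 with 50.6, 39.9 and 27.1 CPM in YAP7d (log2 fold change 0.64 against YAP3d, SE 0.223, edgeR adjusted p 0.0755) and Bst2 with 668, 443 and 482 CPM in YAP7d (log2 fold change 0.10 against YAP3d, SE 0.175, edgeR adjusted p 0.734) the difference between 3 and 7 days did not pass the test.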

How the data were processed

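Non-hepatocyte liver cells were profiled by droplet single-cell RNA sequencing (Chromium 3′ chemistry). The authors made the deposited count table of raw UMI counts per gene and cell with Cell Ranger against mm10 and, per the labels' processing notes, used Seurat 2 downstream. The table held 27998 genes and 8562 cells, of which 8527 had at least 200 detected genes. Counts were summed per library and used without further scaling, genes were filtered with filterByExpr, and YAP3d was compared with WT by edgeR 4.0.16 (TMM factors, quasi-likelihood test, Benjamini-Hochberg adjustment, threshold 0.05) in R 4.3.3, on 6 libraries. A gene could pass filterByExpr through the counts of 1 group alone, which bears on the signs of list members. DESeq2 1.42.0 and limma 3.58.1 (pseudocount 1) were alternatives. The fitting code was tested on simulated counts with known changes.

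Cells were clustered with scanpy 1.11.5 (2351 variable genes, 30 components, 15 neighbours, Leiden resolution 1.0, 24 clusters) and clusters named from 192 fixed markers, 185 of them in the table. Scrublet called 60 cells (0.704%) doublets, which were kept. The same libraries that defined the clusters supplied the comparisons within classes. Shares were compared by an exact two-sided permutation test over 15 assignments of libraries. Nothing in the labels says whether libraries came from separate animals, so p-values measure the spread between libraries. Named genes were the 12 with the smallest unadjusted p in each direction among genes at 50 CPM or more in a group and without overlap (132 higher and 315 lower candidates, of which 14 and 8 immunoglobulin, T-cell receptor, haemoglobin, ribosomal and unnamed genes were left out), 3 per direction in each class, fixed pathway genes, and for each of 28 lists the 2 most abundant and the 2 most different members. The gene groups, lists and tests were chosen with earlier results of these data known. Stk4, Cxcl16, Zbp1, Irf7, Isg15, Ddx58, Gbp2b, Fcgr2b, Flt4, Il6st, Kif23, Ube2c, Top2a, Stmn1, Tpx2, Uqcr10, Gm10709, the genes picked from the DESeq2 calls and list genes given within a class where that class did not name them were singled out after their values were seen. Promoters and gene positions were from RefSeq on GRCm38.p6. Some genes that the rule names are not reported here.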

Additional observations from a re-analysis of the deposited data

Results flagged for a closer look

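Within groups of 4 YAP3d libraries, 1 library was far from the other 3 in 5 of 50 values examined, where chance gives about 1 in 20 such gaps. The share of monocyte-like cells was 23.3% in YAP3d replicate 2 against 3.57% in the next highest. Amotl2 had 5.95 CPM in YAP3d replicate 2, far below the other YAP3d libraries. Cyp26b1 had 52.8 CPM in YAP3d replicate 3, Alb 853 CPM in YAP3d replicate 1 and Sox9 10.1 CPM in YAP3d replicate 1, each far above the others.

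The summed level of YAP target genes lay on opposite sides of WT in different cell classes. The YAP3d mean was 1.37 times the WT mean in B-cell-like cells and 1.24 times in endothelial-like cells, with all 4 libraries above WT, whereas in the NK or ILC1 class it was 0.740 times the WT mean with all 4 libraries below. In that class the gap was small, the highest YAP3d library having 217 CPM and the lowest WT library 220.1 CPM, and the sums rested on 21 and 104 UMIs in WT and 12, 46, 10 and 90 in YAP3d. In B-cell-like cells the sums rested on 18 and 136 UMIs in WT and 21, 23, 37 and 518 in YAP3d. The sums overlapped in T-cell-like, dendritic-like and macrophage-like cells. The difference between classes was not tested, and the list had 1 gene tested in B-cell-like cells and 0 in the NK or ILC1 class.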

How the results depend on the processing

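Over all cells 0 genes passed with edgeR under DESeq2 size factors, no filter, stricter cells, all 9 libraries in the fit, mean per-cell CPM with limma, without hepatocyte-list, haemoglobin and mitochondrial genes, and with the Gm10709 term, and 0 to 1 when a library was left out (1 without YAP3d replicate 4). The DESeq2 test gave 32 and, without YAP3d replicate 2, 17. The last setting, the Gm10709 term and the list medians without that library were chosen after seeing the data. Without a filter on low counts the B, NK or ILC1, T, dendritic, endothelial and macrophage classes gave 6, 10, 28, 33, 43 and 11 genes, and the dendritic class 2 with DESeq2. With a library left out the ranges were 0 to 11, 0 to 13, 0 to 5 and 0 to 3 in the B, NK or ILC1, endothelial and macrophage classes, the upper ends all without WT replicate 1 and, in the endothelial class, also without YAP3d replicate 4. With the replicate number as a block, the replicate block gave 152 genes over all cells, 866 between YAP7d and YAP3d, and 16, 23, 65, 5, 55 and 43 in the 6 classes in the order above. The libraries share only a number: the deviations of the WT and YAP3d libraries with the same number correlated at r 0.241 and 0.177, and each WT library correlated more with another YAP3d library (0.290 and 0.272). YAP7d against YAP3d gave 860 to 3569 genes with a library left out.

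In class shares, the stricter cell filter moved the difference (YAP3d minus WT, percentage points) to 0.0718 for cholangiocyte-like, -0.385 for macrophage-like and -0.0283 for plasmacytoid dendritic-like cells. Leaving out a library gave -1.32 to 6.20 for B-cell-like cells (-0.552 without WT replicate 1, lowest without YAP3d replicate 4), -0.0216 to 0.402 for basophil- or mast-like (lowest without WT replicate 1), -0.341 to 0.0724 for cholangiocyte-like (highest without WT replicate 2, 0.00658 without YAP3d replicate 2), -1.19 to 1.10 for macrophage-like and -0.681 to 6.26 for monocyte-like (both lowest without YAP3d replicate 2), -0.203 to 0.362 for mesenchymal-like (lowest without WT replicate 1) and -0.289 to 0.377 for plasmacytoid dendritic-like cells (lowest without YAP3d replicate 4). Without YAP3d replicate 2 the median log2 fold change turned to -0.11 for mitosis, -0.027 for inflammatory monocyte, -0.039 for cytotoxic and 0.049 for mitochondrially encoded genes over all cells, for mitosis genes to -0.037 in T-cell-like and -0.027 in macrophage-like cells, -0.18 for the GTPases and -0.011 for cytotoxic genes in the NK or ILC1 class, 0.059 for Kupffer genes in macrophage-like cells and -0.11 for type I interferon genes in dendritic-like cells. Over all lists, the whole suspension and the 6 classes, 34 of 178 medians changed sign without that library. Of the other values recomputed for single genes and lists, 409 kept their direction and side of the threshold and 18 passed it under an alternative; the cause was not tested. The comparison rests on 2 WT libraries, and on 49706 to 477127 UMIs per library in the NK or ILC1 class.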

Other observations

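Of 3953 genes tested in at least 3 cell classes, 10 were higher without overlap in 3 or more classes and 5 were lower. Within single classes 3.73 to 7.41% of genes were higher and 3.46 to 4.32% lower without overlap, and all classes share the same libraries, so the counts are given as a description. Cct8, a subunit of the chaperonin that folds actin and tubulin, was higher without overlap in 5 of 6 classes, T-cell-like cells being the exception. It was chosen after its values were seen. Ndufs6, of respiratory complex I, was lower without overlap in the B, NK or ILC1 and dendritic classes, and Calm2, a calmodulin gene, was lower in 3 classes and higher in B-cell-like cells.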
